A study of Mus musculus with 8 samples.

Results

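The calcium/calmodulin-dependent protein kinases were measured as a family of 10 genes, chosen by name: the CaMKII subunit genes *Camk2a*, *Camk2b*, *Camk2d* and *Camk2g*, the CaMKI genes *Camk1*, *Camk1d* and *Camk1g*, the CaMKIV gene *Camk4*, and the genes *Camkk1* and *Camkk2* of the kinases that act upstream of CaMKI and CaMKIV. All 10 were found among the 45706 genes of the series, and all 10 passed the filter on low counts, which kept 17495 genes. RNA bound to ribosomes of PV+ interneurons, the fast-spiking GABAergic cells of the cortex that express parvalbumin, was sequenced in 4 CNO samples and 4 vehicle samples. Every mouse was PvalbFlp/+;Neurod6Cre/+, received at P1 an AAV-flox-fdio virus that encodes HA-RPL10a and myc-hM3Dq, and was studied between P42 and P70 by the labels. The study's methods give a wider window for injection and a later lower bound of age. CNO, the ligand of the receptor hM3Dq, was given at 1 mg/kg in 5 injections over 48 h to raise the activity of these cells, and the vehicle mice carried the same receptor and received no CNO. The virus uses the hSyn promoter and is switched on by Flp from the *Pvalb* locus and off by Cre in *Neurod6* cells, so only infected cells with Flp carry the HA-tagged ribosomal protein by which RNA was purified. Each sample pooled 4 brains, so the spread between samples is a spread between pools.

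Calcium that enters an active neuron binds calmodulin, and calcium-calmodulin switches these kinases on. CaMKII is an assembly of many subunits that can phosphorylate itself on a regulatory threonine and then remain active after calcium has fallen, and it is known above all for its part in synaptic plasticity of excitatory neurons, in which the α subunit is the abundant one. CaMKI and CaMKIV need calcium-calmodulin and also phosphorylation of a threonine in the activation loop by CaMKK, a cascade that carries calcium signals to the cytoskeleton and to the nucleus.

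The stretches around these threonines are shown because phosphorylation there sets the activity of each kinase, and because they let the members of a family be compared base by base. Each is 51 bases of coding sequence of GRCm38 with GENCODE release M21 transcripts, read 5′ to 3′ on the coding strand, and capitals mark the codon of the regulatory threonine. In CaMKII this is codon 287 of *Camk2b* (chr11:5988967-5989017, minus strand), *Camk2d* (chr3:126797723-126797773, plus strand) and *Camk2g* (chr14:20760409-20760459, minus strand).
Camk2b: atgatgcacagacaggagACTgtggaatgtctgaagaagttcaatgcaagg
Camk2d: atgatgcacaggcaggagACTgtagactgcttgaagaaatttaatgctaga
Camk2g: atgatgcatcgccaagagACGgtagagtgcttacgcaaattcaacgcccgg

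In CaMKI the activation-loop threonine is codon 177 of *Camk1* (chr6:113338182-113338325), codon 180 of *Camk1d* (chr2:5339253-5354714) and codon 178 of *Camk1g* (chr1:193352439-193354037), all on the minus strand, and each of these spans holds an intron.
Camk1: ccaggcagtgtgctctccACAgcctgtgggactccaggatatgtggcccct
Camk1d: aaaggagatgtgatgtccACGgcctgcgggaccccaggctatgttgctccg
Camk1g: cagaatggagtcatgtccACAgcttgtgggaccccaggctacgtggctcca

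The *Camk2b* and *Camk2d* stretches were identical at 42 of 51 bases (82.4%), whereas *Camk2g* shared 66.7% with *Camk2b* and 70.6% with *Camk2d*. In CaMKI, identity between the 3 stretches lay between 68.6% and 72.5%. Over whole transcripts, the share of 31-base stretches also found in transcripts of other genes was at most 0.79%, in *Camk2a*, and was 0 in *Camk1g*, *Camk2g*, *Camk4* and *Camkk1*. No more than 9 such stretches of any member occurred in another member, so reads of the paralogs were separable over nearly all of their length. On the opposite strand, *Camk1* overlaps *Ogg1*, *Camk1d* the pseudogene *Gm13216*, *Camk1g* the unclassified gene *Gm37942*, *Camk2d* the antisense gene *Gm15551*, and *Camk4* the antisense gene *2310026I22Rik* and the small RNA gene *Gm22814*. On the same strand, *Camk2d* overlaps 7 unclassified genes and *Camk2a* holds 2 miRNA genes. Whether counting used strand is not given in the sources used here.

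The files held 44064161 to 49413273 counts per sample, and 3 counts, the smallest level taken as measurable, amount to 0.0607 to 0.0681 CPM, a count expressed per fixed library total. This limit covers counting error only, since PCR copies are not independent molecules. The kinase genes had 1046 to 40435 counts in each sample. All 12 markers of PV+ interneurons were detected, with 1245 to 4125 TPM in sum (counts scaled by transcript length and by library total), and all 10 markers of pyramidal cells were detected as well, with 535 to 857 TPM. The PV+ list includes *Gad1*, *Gad2* and *Slc32a1*, which other GABAergic interneurons also express, so its sum is not specific to PV+ cells. Vehicle replicate 1 stood apart: its PV+ markers summed to 1245 TPM and its *Pvalb* level was 300.1 TPM, against 2657 to 4125 TPM and 819.7 to 1160 TPM in the other 7 samples, and its pyramidal markers were the highest of all. Of the astrocyte, oligodendrocyte, microglial, endothelial and SST+ or VIP+ interneuron lists, every gene passed the count filter and none was at 0. In bulk samples, fewer cells of a type and less RNA per cell cannot be told apart. *Fos*, which neurons switch on with activity, had 36.9 to 83.7 TPM in the CNO samples and 13.8 to 20.6 TPM in the vehicle samples. The groups did not overlap in TPM, as in 3.17% of all genes in either direction. Most of these were lower with CNO (2.54% of all genes), the direction opposite to *Fos*.

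On the count scale, none of the 10 kinase genes differed between CNO and vehicle beyond the spread between samples, and no gene passed the test on the TPM scale after adjustment. With edgeR's quasi-likelihood test on counts, 0 of 10 had an adjusted p under 0.05, as did 0 of the 17495 genes tested (0%), and adjusted p-values of the kinase genes ran from 0.817 to 0.966. At an unadjusted p under 0.05 there were also 0 of 10, against 4.09% of all genes. The likelihood ratio test with robust dispersion and DESeq2's Wald test each gave 0 of 10 kinase genes at either threshold. Of all genes, these tests called 15 (0.0857%) and 11 (0.0629%) at the adjusted threshold and 4.81% and 4.77% at the unadjusted one. The study itself reported genes that differed between CNO and vehicle, *Fos* among them, and they outnumbered the 15 called here with robust dispersion. It used edgeR with robust dispersion and cut-offs on fold change, false discovery rate and TPM. Log2 fold changes, CNO minus vehicle, with their standard errors (s.e.), came from the same fit. They were below 0 for 8 genes and above 0 for *Camk1d* and *Camk2g*, with a median of -0.06 where the median of all genes was 0.00 and 49.6% of genes lay below 0. The estimates ran from -0.27 to 0.20 in log2, and each was uncertain. The 95% intervals of the 10 genes together ran from 0.659-fold (lower bound of *Camkk2*) to 1.35-fold (upper bound of *Camk2g*). These intervals were not adjusted for the number of genes.

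**Figure D1:**
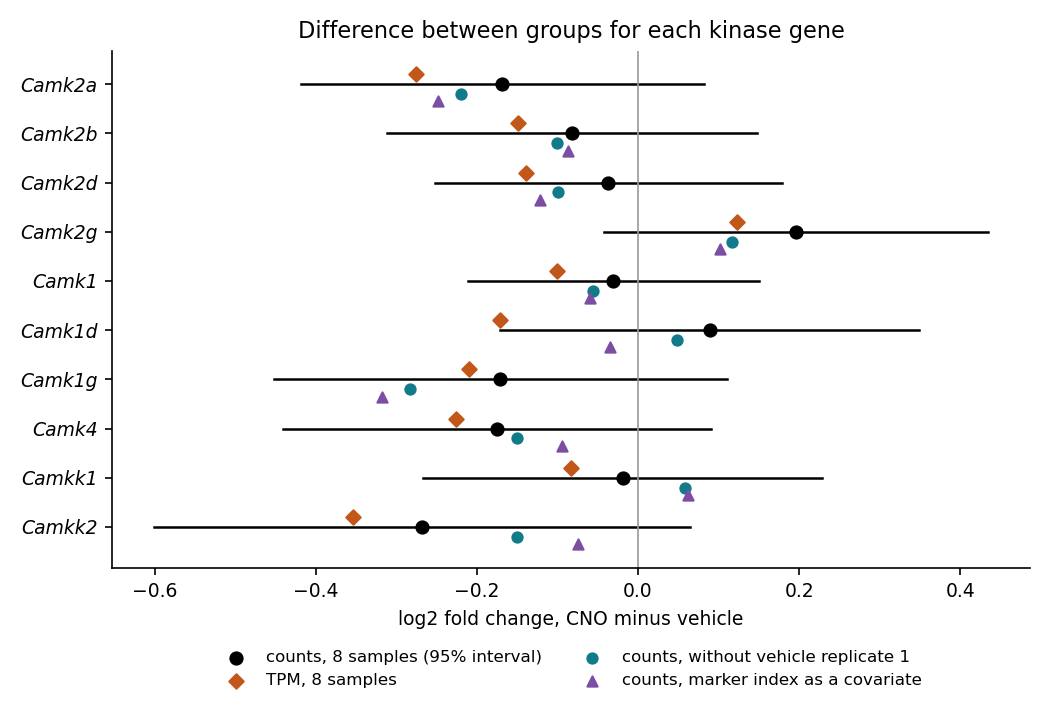
The horizontal axis is the log2 fold change, CNO minus vehicle, of each kinase gene, with black points and bars for counts of 8 samples and their 95% interval, diamonds for TPM, circles for counts without vehicle replicate 1 and triangles for counts with the marker index as a covariate. All 10 intervals cross 0, and only the *Camk1d* and *Camkk1* estimates lie on both sides of 0.

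Levels were compared between genes as TPM, which is corrected for transcript length. They are levels in each sample as a whole. Markers of pyramidal cells were detected too, so the part from PV+ interneurons is not known. *Camk2b* was the most abundant kinase transcript with a mean of 445 TPM in vehicle samples, higher than *Camkk2* in 8 of 8 samples by 1.33 to 2.26 times. *Camkk2* (267 TPM) and *Camk2a* (239 TPM) overlapped between vehicle samples, and their order held in only 4 of 8 samples. *Camk2a* was above *Camk1* in 8 of 8 samples. After it came *Camk1* (157 TPM), *Camkk1* (79.2 TPM), *Camk2d* (56.1 TPM) and *Camk1d* (35.4 TPM), each above the next in 8 of 8 samples. *Camk1d* and *Camk1g* (30.2 TPM) overlapped again, whereas *Camk1g* was above *Camk2g* (22.5 TPM) in 7 of 8 samples and *Camk2g* above *Camk4* (16.4 TPM) in 8 of 8. Compared with all genes tested, whose median was 13.4 TPM over the 8 samples, *Camk2b* had a higher level than 98.5% of genes and *Camk4*, the lowest kinase gene, a higher level than 52.5%. Summed over the 10 genes, the level was 1173 ± 69.5 TPM for CNO and 1348 ± 76.4 TPM for vehicle (SD, n = 4 each), and the groups overlapped.

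**Figure D2:**
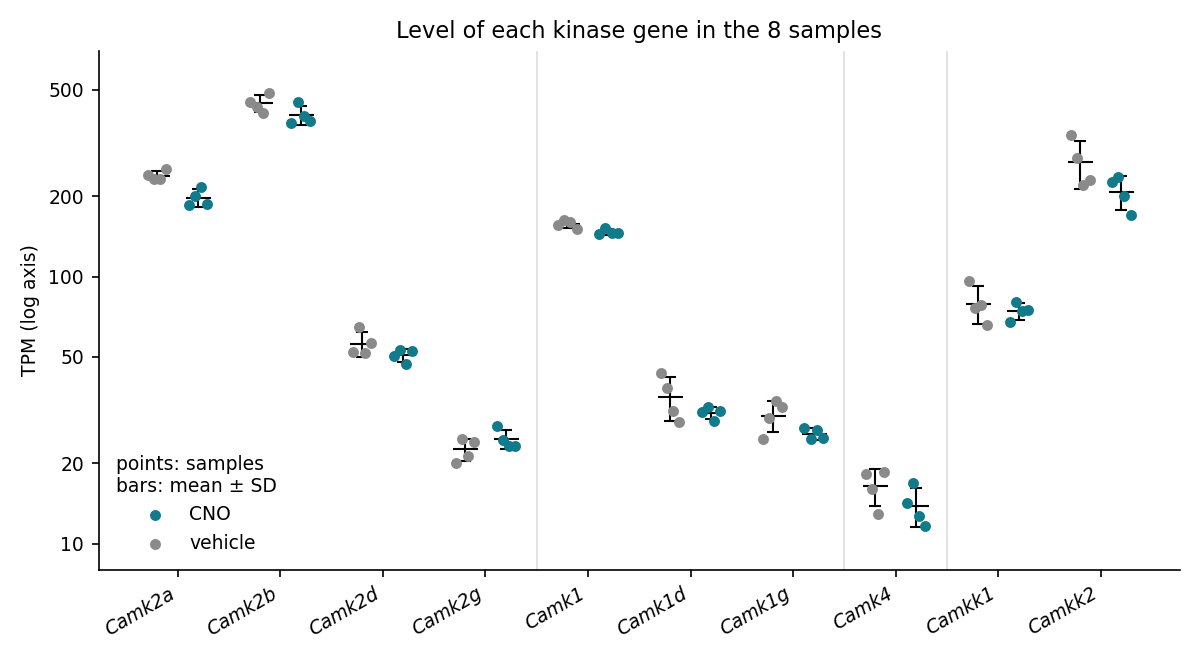
The vertical log axis is TPM, with 1 point for each sample and bars for the mean ± SD of 4 samples, and genes are ordered by family from CaMKII to CaMKK. *Camk2b* is highest and *Camk4* lowest in every sample, and the groups overlap in every gene except *Camk2a*.

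Of the CaMKII genes, *Camk2a* encodes the α subunit. Its level was 186, 200.1, 217 and 187 TPM in CNO replicates 1 to 4 and 239, 232, 231 and 253 TPM in vehicle replicates 1 to 4. Every CNO sample was thus below every vehicle sample on the TPM scale, a pattern shared with 2.54% of all genes (3.17% in either direction), and the two-sided exact permutation test gave p = 0.0286, the smallest that 4 samples against 4 allow. With limma on log2(TPM + 1), the log2 fold change was -0.28 (s.e. 0.09, unadjusted p = 0.00901, adjusted p = 0.749), where the median of all genes on this scale was -0.06 and 5.37% of genes had an unadjusted p under 0.05, 4.32% with a lower value in CNO. On the count scale the groups overlapped. *Camk2a* had 276 to 346 normalized CPM with CNO and 310.1 to 380.0 normalized CPM with vehicle. This was a log2 fold change of -0.17 (s.e. 0.11, adjusted p = 0.817). TPM also carries the length assigned to a gene in each sample, and this length was 0.942 to 1.05 times its mean in *Camk2a*, lowest in vehicle replicate 1. Without vehicle replicate 1 the count-based value was -0.22 (s.e. 0.11). The genes most like *Camk2a* in log2 CPM over the 8 samples were *Adrbk1* (Pearson r = 0.96) and *Gm17491* (r = 0.95).

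*Camk2b* encodes the β subunit, which ties the kinase to actin filaments. It is found on chromosome 11 from 5969644 to 6066362 of GRCm38, on the minus strand. Its level was 376, 449, 398 and 383 TPM in the CNO samples and 450.3, 431, 411 and 488 TPM in the vehicle samples. The groups overlapped, with vehicle replicates 1 and 4 above every CNO sample and CNO replicate 2 above the other vehicle samples. On the count scale *Camk2b* was steady, with a standard deviation within groups of 0.08 log2 CPM that was smaller in only 3.66% of all genes. Its log2 fold change was -0.08 (s.e. 0.10, adjusted p = 0.839). Most like it were *Gm37233* (r = 0.97) and *Hsph1* (r = 0.97).

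*Camk2d*, the δ subunit gene and the form best known from heart muscle, spans 126596302 to 126846326 on the plus strand of chromosome 3. It had 50.3, 52.9, 47.0 and 52.6 TPM with CNO and 52.0, 64.6, 51.6 and 56.2 TPM with vehicle. Vehicle replicate 2 was the highest and the remaining samples were close together, and the log2 fold change of counts was -0.04 (s.e. 0.10, adjusted p = 0.922). *Rcn2* (r = 0.93) and *Gm20721* (r = 0.92) were most like it.

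*Camk2g* encodes the γ subunit, a form known to carry calmodulin towards the nucleus. The gene lies on chromosome 14 from 20734875 to 20794088, on the minus strand. Its level was 27.5, 24.4, 23.1 and 23.3 TPM with CNO and 20.1, 24.7, 21.3 and 23.9 TPM with vehicle. CNO replicate 1 was the highest and vehicle replicate 1 the lowest, with the other 6 samples between them. *Camk2g* had the largest positive log2 fold change of the 10 genes on the count scale, 0.20 (s.e. 0.11, unadjusted p = 0.0978, adjusted p = 0.817), and 0.12 without vehicle replicate 1. *Fam220a* (r = 0.98) and *Asah2* (r = 0.97) were most like it over the 8 samples.

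Within CaMKII, the β subunit gene made up 57.3% to 61.8% of the summed TPM of the 4 genes and the α subunit gene 27.6% to 32.3%. Because pyramidal markers were detected in every sample, these shares cannot be assigned to PV+ interneurons alone. The ratio of *Camk2b* to *Camk2a* TPM was 2.04 ± 0.17 for CNO and 1.86 ± 0.06 for vehicle (SD, n = 4 each), and the groups overlapped. *Camk2d* made up 6.83% to 8.59%. The share of *Camk2g* was 4.31%, 3.36%, 3.37% and 3.61% in the CNO samples and 2.64%, 3.29%, 2.98% and 2.92% in the vehicle samples. All 4 CNO samples lay above all 4 vehicle samples, by a margin of 3.36% against 3.29% between the nearest samples. This was the only one of the 4 shares without overlap. The TPM of *Camk2g* itself overlapped between groups. A share also depends on the summed TPM of the 4 genes, whose mean was 674 for CNO and 762 for vehicle, with overlap between groups. How often such a share separates the groups in other sets of genes was not examined. The separation is described here without a test.

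*Camk1* encodes CaMKIα, a cytosolic kinase known for its part in axon and dendrite growth. It is on chromosome 6 from 113334124 to 113343984, on the minus strand. Its level was 144, 152, 145 and 145 TPM in the CNO samples and 156, 163, 160.1 and 151 TPM in the vehicle samples. The groups overlapped at a single pair, CNO replicate 2 and vehicle replicate 4. In counts the spread within groups, 0.06 log2 CPM, was the narrowest of the 10 genes and was smaller in only 1.26% of all genes, and the log2 fold change was -0.03 (s.e. 0.08, adjusted p = 0.924). Its interval, 0.864-fold to 1.11-fold, was the narrowest of the 10. Most like *Camk1* were *1700056E22Rik* (r = 0.95) and *Cdh13* (r = 0.93).

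*Camk1g* encodes CaMKIγ, which is anchored to membranes by lipid and acts in dendrites. The gene spans 193346346 to 193370298 on the minus strand of chromosome 1. It had 27.1, 24.6, 26.7 and 24.9 TPM with CNO and 24.7, 29.4, 34.1 and 32.4 TPM with vehicle. Vehicle replicate 1 fell among the CNO samples, and the other 3 vehicle samples were above all 4 of them. In counts, its log2 fold change was -0.17 (s.e. 0.13, adjusted p = 0.817) with all samples and -0.28 (s.e. 0.09, unadjusted p = 0.0104, adjusted p = 1.00) without vehicle replicate 1, but -0.08 (s.e. 0.13) without vehicle replicate 3, the highest sample. *Camk1g* was the only kinase gene with an unadjusted p under 0.05 in that fit, in which 2.26% of all genes had one. *Car2* (r = 0.97) and *Agap2* (r = 0.97) followed it most closely.

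*Camk1d* encodes CaMKIδ, and it was the only kinase gene whose direction differed between counts and TPM. The level was 31.2, 32.5, 28.7 and 31.5 TPM in the CNO samples and 43.5, 38.2, 31.5 and 28.5 TPM in the vehicle samples, highest in vehicle replicates 1 and 2. In counts the same samples had 80.6, 59.9, 74.7 and 87.0 normalized CPM with CNO and 66.1, 69.3, 71.6 and 77.1 normalized CPM with vehicle, and CNO replicate 2 was the lowest. Its log2 fold change was 0.09 (s.e. 0.12, adjusted p = 0.846) in counts and -0.17 (s.e. 0.13, adjusted p = 0.749) in log2(TPM + 1). Most like *Camk1d* in log2 CPM were *Ccser2* (r = 0.99) and *Brd7* (r = 0.98).

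The 2 scales also differ over all genes, with a median log2 fold change of 0.00 in counts and -0.06 in log2(TPM + 1). Beyond that shift, they part where the length assigned to a gene differs between samples. That length can be read from the count per TPM of a gene relative to its own mean. This relative length was 1.11, 0.856, 1.11 and 1.15 for *Camk1d* in the CNO samples and 0.732, 0.821, 0.989 and 1.23 in the vehicle samples. Replicates 1 and 2 of vehicle and replicate 2 of CNO were short, and the groups overlapped. The standard deviation of its log2 was 0.27, whereas the median over 13534 genes with at least 50 counts in every sample was 0.03, and only 1.57% of these genes had a value at least as large. In the other 9 kinase genes, relative length stayed between 0.931 and 1.05.

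**Figure D3:**
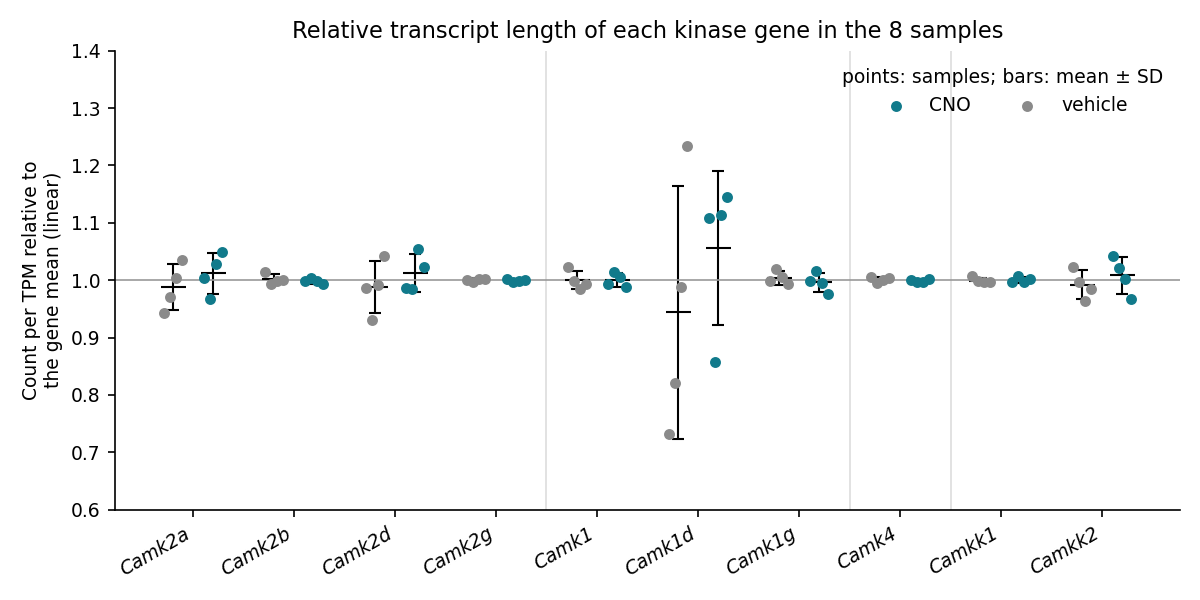
The vertical axis is the count per TPM of each gene in each sample divided by the mean of that gene, a measure of the transcript length assigned to it, with points for samples and bars for the mean ± SD of 4 samples. *Camk1d* ranges from 0.732 to 1.23, and the other 9 genes lie between 0.931 and 1.05.

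*Camk1d* covers 5293457 to 5714515 on the minus strand of chromosome 2, and GENCODE lists 2 coding transcripts of it, of 6962 and 1295 bases with 11 exons each, that begin at 5714515 and 5676046. RefSeq places starts at 5714762 and 5676046 on GRCm38.p6, and the second lies within an intron of the longer transcript. The 2 coding transcripts also end at different places, 5293457 and 5298887, so their unequal length is not set by the start alone. The 100 bases before each RefSeq start are shown, with capitals marking CG dinucleotides, read on the minus strand at chr2:5714763-5714862 and chr2:5676047-5676146.
Camk1d, outer start: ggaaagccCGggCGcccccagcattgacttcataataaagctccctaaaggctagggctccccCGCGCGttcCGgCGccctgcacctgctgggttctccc
Camk1d, inner start: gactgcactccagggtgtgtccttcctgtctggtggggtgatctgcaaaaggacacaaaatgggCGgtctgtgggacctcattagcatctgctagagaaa

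The 250 bases before the outer start of *Camk1d* held 22 CG dinucleotides, a number reached by 14.8% of all promoters in the RefSeq table, and those before the inner start held 5, reached by 55.6%. Which start or end was used in each sample cannot be read from gene totals, and the part of either in the difference between scales was not tested. Across the family, 7 of 10 genes had entries in this table, with 8 promoters of 300 bases. The full cyclic AMP response element TGACGTCA, searched on both strands, was in 0 of the 8, and 1.79% of 32851 promoters hold it. The core TGACG, which is also part of the longer motif, was in those of *Camk1* and *Camkk1* and is in 20.8% of all promoters. The AP-1 motif TGANTCA was in 0 of the 8 and is in 7.81% of all.

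*Camk4* encodes CaMKIV, a largely nuclear kinase that phosphorylates CREB. Its level was 14.3, 16.9, 12.7 and 11.6 TPM in the CNO samples and 18.2, 16.0, 12.9 and 18.5 TPM in the vehicle samples. Vehicle replicates 1 and 4 were the highest, and vehicle replicate 3 lay among the CNO samples, of which replicates 3 and 4 were the lowest. Counts gave a log2 fold change of -0.17 (s.e. 0.12, adjusted p = 0.817), and -0.15 without vehicle replicate 1. *Pias1* (r = 0.97) was among the genes most like it.

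*Camkk1* encodes CaMKKα, one of the upstream kinases. It lies on chromosome 11 from 73019008 to 73042073, on the plus strand, and had 67.6, 80.2, 74.1 and 74.7 TPM with CNO and 96.5, 76.5, 78.0 and 65.9 TPM with vehicle. Vehicle replicates 1 and 4 were the highest and the lowest of all 8 samples. In counts, the log2 fold change was -0.02 (s.e. 0.11, adjusted p = 0.966), and it was 0.06 without vehicle replicate 1. *Tcf19* (r = 0.96) and *Slc37a2* (r = 0.94) were most like it.

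*Camkk2* encodes CaMKKβ, which activates AMP-activated kinase in addition to CaMKI and CaMKIV. The gene lies on chromosome 5 from 122731170 to 122779409, on the minus strand. It had 225, 236, 199.6 and 169 TPM in the CNO samples and 339.5, 278, 221 and 231 TPM in the vehicle samples. Vehicle replicates 1 and 2 were above all CNO samples, whereas vehicle replicates 3 and 4 lay among them, and CNO replicate 4 was the lowest. *Camkk2* had the largest fold change of the 10 genes in either direction, -0.27 in log2 counts (s.e. 0.15, unadjusted p = 0.104, adjusted p = 0.817), with an interval of 0.659-fold to 1.05-fold. In log2(TPM + 1) the value was -0.35 (s.e. 0.15, unadjusted p = 0.0445, adjusted p = 0.749). Without vehicle replicate 1, the sample with few PV+ markers, the count-based value was -0.15 (s.e. 0.13). With a term for replicates 1 and 2 against 3 and 4 it was -0.26 (s.e. 0.10, unadjusted p = 0.0282, adjusted p = 0.678), in a fit where 6.82% of all genes had an unadjusted p under 0.05. *E130307A14Rik* (r = 0.99) and *Slc7a6* (r = 0.99) tracked *Camkk2* most closely.

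The ratio of *Camkk2* to *Camkk1* TPM was 3.33, 2.94, 2.69 and 2.27 in the CNO samples and 3.52, 3.63, 2.83 and 3.50 in the vehicle samples. *Camkk2* was thus the more abundant of the CaMKK transcripts in every sample, with overlap between groups.

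Because the samples differed in their content of PV+ markers, each kinase gene was set against a marker index, the mean log2 CPM of the 12 PV+ markers minus that of the 10 pyramidal markers. The index was 1.71, 0.96, 1.56 and 2.15 in CNO replicates 1 to 4 and -0.18, 1.12, 1.58 and 1.45 in vehicle replicates 1 to 4. *Camkk2* was lower where the index was higher, with Pearson r = -0.88 (exact permutation p = 0.00464, adjusted over 10 genes 0.0464) and Spearman rho = -0.69 (exact permutation p = 0.0694, adjusted 0.166). Without the 2 samples farthest from the median index, CNO replicate 4 and vehicle replicate 1, r was -0.42, and it was -0.74 without vehicle replicate 1 alone, so the size of r rests in part on these samples. *Camk1d* had r = 0.74 (exact permutation p = 0.0369, adjusted 0.133) and rho = 0.88 (exact permutation p = 0.00724, adjusted 0.0724), and r was 0.88 without the same 2 samples. *Camk2g* had r = 0.78 (exact permutation p = 0.0400, adjusted 0.133) with rho = 0.67 (exact permutation p = 0.0831, adjusted 0.166), but only 0.36 without these samples. By rank, *Camk2b* had rho = -0.79 (exact permutation p = 0.0279, adjusted 0.123) with r = -0.20 (exact permutation p = 0.569, adjusted 0.632), and r was -0.33 without the 2 samples. *Camk4* had rho = -0.76 (exact permutation p = 0.0368, adjusted 0.123) with r = -0.64 (exact permutation p = 0.0742, adjusted 0.185), and r was -0.45 without them. For *Camk1*, *Camk1g*, *Camk2d* and *Camkk1*, r lay between -0.51 and 0.60 (exact permutation p from 0.105 to 0.429) and rho between -0.12 and 0.48 (exact permutation p from 0.243 to 0.793). *Camk2a*, a gene abundant in pyramidal cells, had r = 0.20 (exact permutation p = 0.652) and rho = 0.19 (exact permutation p = 0.665). The correlations were taken over CNO and vehicle samples together, so a difference between the groups enters r and rho. How many of all genes reach such values was not examined. Neither group alone has the 6 samples that a correlation within it would need.

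The index was measured after treatment in the same samples, with its lowest value in vehicle replicate 1 and its highest in CNO replicate 4. As a covariate it can thus take up part of a difference between groups or add to it. With the index as a covariate in the edgeR fit, the log2 fold change of *Camkk2* was -0.07 (s.e. 0.10) and that of *Camk4* -0.09 (s.e. 0.11). In the same fit it was -0.32 for *Camk1g* (s.e. 0.09, unadjusted p = 0.00304, adjusted p = 0.999) and -0.25 for *Camk2a* (s.e. 0.09, unadjusted p = 0.0142, adjusted p = 0.999). These were 2 of 10 kinase genes at an unadjusted p under 0.05, where 3.28% of all genes had one. Both were below 0 under each of the 20 alternatives tried, but so were *Camk1*, *Camk2b*, *Camk4* and *Camkk2*. *Camk2g* was above 0 under each. The alternatives reuse the same 8 samples, and no kinase gene had an adjusted p under 0.05 under any of them.

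**Figure D4:**
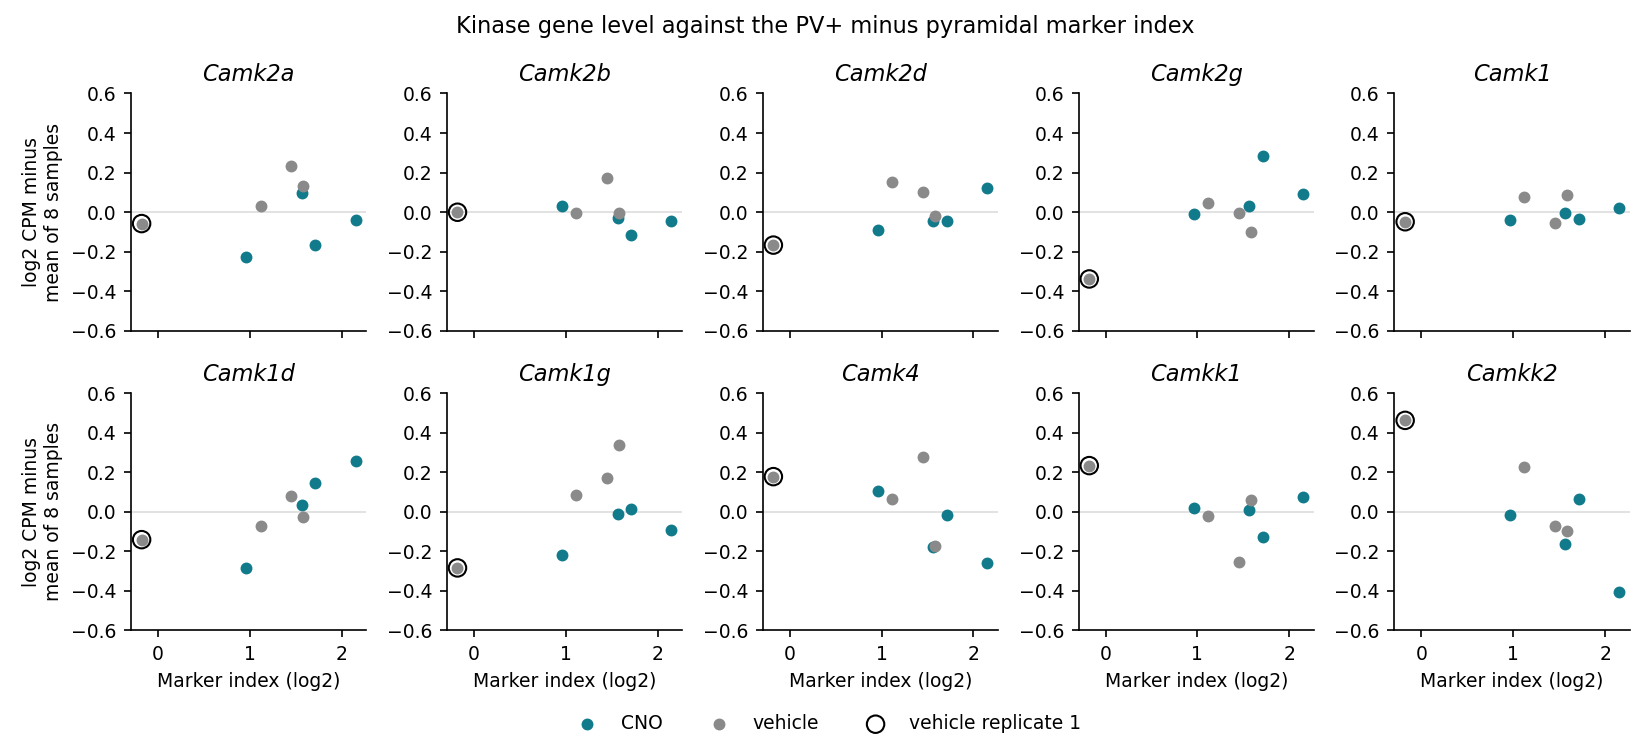
Each panel plots 1 kinase gene as log2 CPM minus its mean over 8 samples against the marker index (log2), with vehicle replicate 1 circled. *Camkk2* runs from high in vehicle replicate 1 at an index of -0.18 to low in CNO replicate 4 at 2.15, and *Camk1d* runs the opposite way among the samples.

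Around the kinases, 64 genes of the calcium-calmodulin pathway were examined in 8 roles, and all passed the count filter. None had an adjusted p under 0.05 by the quasi-likelihood test, and 4 of 64 (6.25%) had an unadjusted p under 0.05, of which 1 was higher and 3 were lower with CNO, against 1.44% and 2.65% of all genes. The log2 fold change was above 0 for 34 genes and below 0 for 30, with a median of 0.01. The range over the 64 genes was -0.34 to 0.44.

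*Calm2*, a gene for calmodulin itself, was the most abundant of its role, with 2668 ± 318 TPM for CNO and 2631 ± 324 TPM for vehicle (SD, n = 4 each), and its mean TPM was thus well above that of every kinase gene. Its log2 fold change was 0.10 (s.e. 0.16, adjusted p = 0.878). The reservoir proteins that bind calmodulin at low calcium include *Nrgn*, the most abundant of the 4 examined, with 899 ± 121 TPM for CNO and 1018 ± 278 TPM for vehicle (SD, n = 4 each). Of these 4 genes, 3 had log2 fold changes below 0 and none passed the test.

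Of the 6 genes for CaMK inhibitors, related kinases and phosphatases, *Ppm1f* encodes a phosphatase that removes the activating phosphate from CaMKII. It had 85.0, 81.5, 83.4 and 81.0 normalized CPM in the CNO samples and 68.4, 69.6, 72.7 and 68.1 normalized CPM in the vehicle samples. All 4 CNO samples were above all vehicle samples, as in 0.789% of all genes (2.42% in either direction). Its log2 fold change was 0.25 (s.e. 0.08, unadjusted p = 0.00836, adjusted p = 0.817). The most abundant gene of the group was *Camkv*, which encodes a kinase-like protein without activity, with a log2 fold change of -0.17 (s.e. 0.15, adjusted p = 0.817). *Pnck*, named after its values were seen, encodes a further kinase of the CaMKI family and had a log2 fold change of 0.05 (s.e. 0.10, adjusted p = 0.888).

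Among the 12 substrate genes, *Grin2b* encodes the NMDA receptor subunit to which activated CaMKII binds. It had 63.7, 65.4, 54.3 and 52.5 normalized CPM with CNO and 67.1, 74.8, 67.3 and 70.6 normalized CPM with vehicle. In counts, all 4 CNO samples were below all vehicle samples, as in 1.63% of all genes. The log2 fold change was -0.25 (s.e. 0.10, unadjusted p = 0.0297, adjusted p = 0.817). In TPM, *Grin2b* had 36.0 ± 11.6 for CNO and 41.2 ± 15.1 for vehicle (SD, n = 4 each), and the groups were not separated. *Mef2c*, a transcription factor gene and the most abundant of the substrates, had a log2 fold change of -0.08 (s.e. 0.10, adjusted p = 0.830).

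The 14 genes grouped here as other calmodulin-regulated or related kinases included *Itpka*, whose product phosphorylates inositol trisphosphate. It had 57.3, 60.2, 61.9 and 59.6 normalized CPM with CNO and 72.0, 74.6, 72.4 and 61.8 normalized CPM with vehicle. Vehicle replicate 4 fell among the CNO samples and the other vehicle samples were above them, with a log2 fold change of -0.23 (s.e. 0.09, unadjusted p = 0.0232, adjusted p = 0.817). *Dclk3*, of the doublecortin-like kinases, had 25.2 to 31.3 normalized CPM with CNO and 29.3 to 44.8 normalized CPM with vehicle, with a log2 fold change of -0.34 (s.e. 0.14, unadjusted p = 0.0347, adjusted p = 0.817). Its highest value was in vehicle replicate 1. *Dclk1*, the most abundant of this group, had a value of 0.04 (s.e. 0.11, adjusted p = 0.920).

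No gene of the other 3 roles had an unadjusted p under 0.05. *Ppp3ca*, the main catalytic subunit gene of calcineurin and the most abundant of 8 calcineurin genes, had a log2 fold change of -0.14 (s.e. 0.11, adjusted p = 0.817). *Prkag1*, a subunit gene of AMP-activated kinase and the most abundant of 7 genes in the CaMKK branch, had 0.16 (s.e. 0.17, adjusted p = 0.825). *Camta2*, a calmodulin-binding transcription activator gene and the most abundant of the 10 remaining enzymes and factors, had -0.08 (s.e. 0.16, adjusted p = 0.895).

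**Figure D5:**
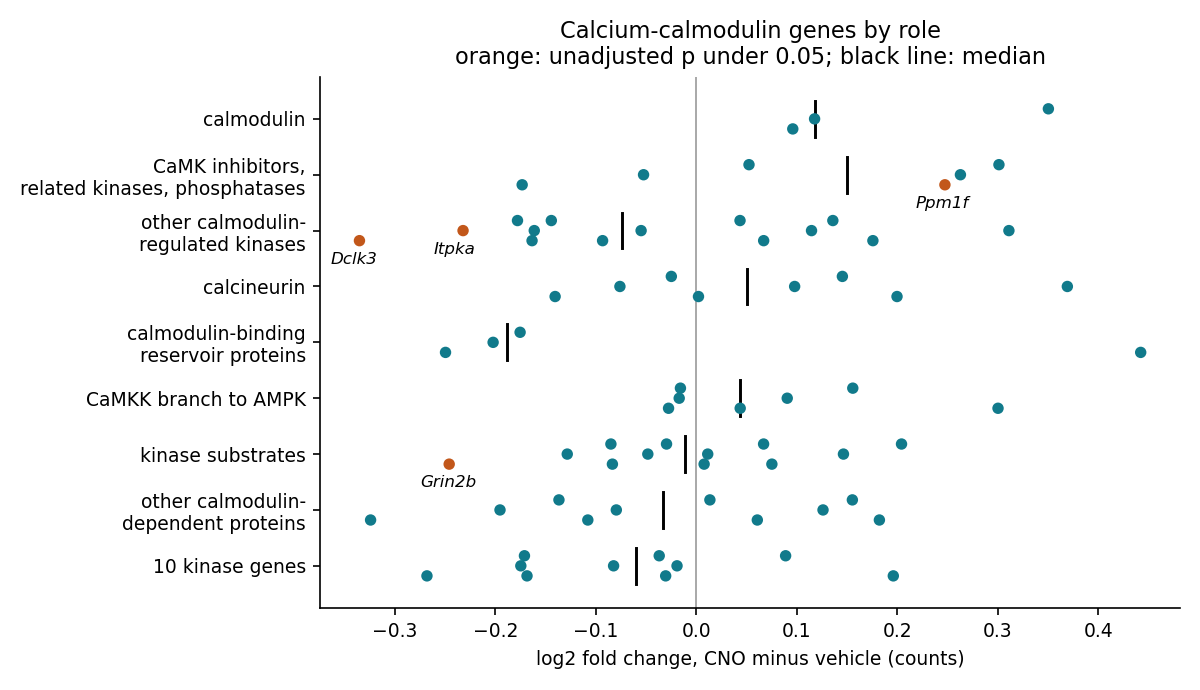
The horizontal axis is the log2 fold change of counts, CNO minus vehicle, for 64 pathway genes by role and for the 10 kinase genes, with 1 point for each gene, a black line at the median of each role, and orange for an unadjusted p under 0.05. *Ppm1f*, *Itpka*, *Dclk3* and *Grin2b* are orange, and no kinase gene is.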

How the data were processed

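RNA-seq of ribosome-bound RNA from PV+ interneurons comprised 4 CNO and 4 vehicle samples, grouped by their titles. Per the labels and methods, the authors used FastQC, Trim Galore, STAR and Salmon with GRCm38. The authors deposited estimated counts per gene without normalization, which were rounded to whole numbers here. The authors also deposited TPM values, which are scaled by transcript length in each sample. Genes with under 10 counts in at least 4 samples were left out. Groups were compared with edgeR 4.0.16 (R 4.3.3; TMM, quasi-likelihood test, Benjamini-Hochberg over 17495 genes), with a biological coefficient of variation of 0.183. Likelihood ratio and DESeq2 1.42.0 tests and limma 3.58.1 on log2 TPM were alternatives, together with other normalizations, filters, covariates and omitted samples. Log2 CPM used a prior count of 2. Single values were compared over all 70 assignments of 4 samples against 4, and correlations over 40320 orders, both two-sided. The kinase genes, pathway list and markers were chosen with earlier results of these data known. Named were all kinase genes, pathway genes with an unadjusted p under 0.05 or the highest mean TPM of their role, and the 2 genes with the highest r to each kinase gene. Some genes that this rule names are not reported here.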

Additional observations from a re-analysis of the deposited data

Results flagged for a closer look

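In *Camk1d*, the relative transcript length of CNO replicate 2 was 0.856, far from the other 3 CNO samples at 1.11 to 1.15. In *Camk2b*, the level of vehicle replicate 4 was 9.67 log2 CPM, whereas the other 3 vehicle samples lay between 9.49 and 9.50. Each was a sample whose gap to its nearest neighbour took up most of the range of its group of 4 by Dixon's criterion. Of 42 such groups examined, 2 held a sample of this kind, and chance alone gives 2.1. *Camk1d* relative length was also low in vehicle replicates 1 and 2, at 0.732 and 0.821. Without vehicle replicate 4, the log2 fold change of *Camk2b* was -0.04.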

How the results depend on the processing

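Under 20 alternatives, 189 of 200 log2 fold changes of the kinase genes kept their direction, and no adjusted p was under 0.05 (smallest 0.472). Those of *Camk1d* reversed to -0.17 and -0.18 in log2 TPM with 1 or 0.1 added, to -0.034 with the marker index, and to -0.069 and -0.038 in log2 TPM without vehicle replicate 1 or with the index, 2 alternatives added after seeing the data. *Camkk1* reversed to 0.062 with the index, to 0.019 without CNO replicate 1, to 0.059 without vehicle replicate 1, and to 0.015 and 0.041 in the added alternatives. *Camk2d* reached 0.00034 without vehicle replicate 2. The cause was not tested. Leaving out each sample in turn, values ran from -0.06 to -0.01 (*Camk1*), 0.00 to 0.19 (*Camk1d*), -0.28 to -0.08 (*Camk1g*), -0.23 to -0.12 (*Camk2a*), -0.11 to -0.04 (*Camk2b*), -0.10 to 0.00 (*Camk2d*), 0.12 to 0.24 (*Camk2g*), -0.25 to -0.11 (*Camk4*), -0.10 to 0.06 (*Camkk1*) and -0.34 to -0.15 (*Camkk2*). Kinase genes with an unadjusted p under 0.05 numbered 2 in log2 TPM with 1 or with 0.1 added (*Camk2a* and *Camkk2*, where 5.37% and 5.24% of all genes passed), 2 with the index (3.28%) and 2 in both added alternatives (*Camk1g* and *Camk2a*, where 2.96% and 4.28% passed), 1 with a term for replicates 1 and 2 against 3 and 4 (*Camkk2*, 6.82%), and 0 to 1 with a sample left out (1.82% to 9.62%). Of all genes, adjusted p was under 0.05 in 15 with the likelihood ratio test, 11 with DESeq2, 4 without the count filter, 3 with that term and 0 to 2 with a sample left out (2 without CNO replicate 1). Unadjusted p was under 0.05 in 1126 without the filter, 1193 with that term and 318 to 1683 with a sample left out (1683 without CNO replicate 2, 318 without CNO replicate 4, 396 without vehicle replicate 1). Pathway genes at this threshold numbered 1 to 9 with a sample left out (9 without CNO replicate 2, 2 without CNO replicate 1, 1 without vehicle replicate 2).

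Replicate numbers are shared by the groups, and same-numbered samples correlated at 0.03, -0.03, 0.16 and 0.24, so the numbers were not taken as pairs. With the replicate block, 0 genes had an adjusted p under 0.05 and 765 an unadjusted p under 0.05, none of them a kinase gene. All samples are pools of brains, and p-values measure the spread between pools only. With 4 samples a group, differences inside the intervals given could not be told from none.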
